A study of Mus musculus with 2 samples.

Results

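Histone genes were examined on the arrays of a study that set the retinoic acid (RA) response of mouse embryonic stem (ES) cells with Utx against that without it. The members are all genes whose symbol in the platform annotation names a linker histone (H1f and a number) or a replication-dependent core histone (H2ac, H2bc, H3c or H4c and a number). This gave 50 of the 22485 named genes: 10 of the H1 class, 14 H2A, 10 H2B, 8 H3 and 8 H4. Older symbols starting with Hist would have counted as well, but the annotation holds the current ones. By RefSeq's synonyms, 37 members carry an older Hist1 symbol and 9 an older Hist2 symbol, the names of the large and the small histone gene cluster, and 4 carry neither.

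The wild-type line was V6.5, and the other line, labelled UtxKO, lacks Utx, an X-linked demethylase of lysine 27 on histone H3. Untreated cells of both lines grew on gelatin with LIF, the cytokine that keeps ES cells undifferentiated. Treated cells were moved to medium without LIF and with 100 nM RA for 48 h, so the loss of LIF and the gain of RA cannot be told apart, and RA below stands for both. Each line had 1 array, with untreated RNA in Cy3 and treated RNA in Cy5, which gives 1 log2 ratio per feature and line and no replicates. The sources used here do not give how the knockout was made, whether it is 1 clone, or the sex of the cells. Positive ratios are taken to mean more RNA in treated cells, which follows from the dyes and is likely but not certain. The values hold no level of any gene, so neither the loss of Utx nor the ES cell identity could be checked.

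Histones H2A, H2B, H3 and H4 form the protein core around which DNA is wrapped, and H1 binds the linker DNA between cores. Most of these genes are transcribed in S phase, when new DNA must be packed, and they lie in clusters with near-identical copies. Their mRNAs usually end in a conserved stem-loop bound by SLBP rather than in a poly(A) tail, although some histone genes also give polyadenylated transcripts, above all in cells that leave the cell cycle. Labelling here was primed with oligo-dT, so the ratios mainly follow the polyadenylated share of each transcript, and a change in total histone mRNA and a change in its tailing cannot be told apart. In bulk RNA, a change in the share of cells that make a transcript and a change per cell cannot be told apart either.

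The arrays hold 44397 features, of which 55 belong to the members: 45 members rest on 1 feature and 5 on 2. Over genes with few features, the median SD between features of a gene was 0.14 (log2) on either array, which is the only error within an array that the values give. The number of arrays limits the precision. Copies of one class share most of their coding sequence, so features may take signal from several copies, and values of single copies are uncertain.

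The start of 1 member per class is shown as an example, each the 250 bases before the start listed in RefSeq (GRCm38.p6), 5′ to 3′ on the gene's own strand. A shown member need not be typical of its class. H1f4 was the highest replication-dependent H1 gene on both arrays, H2ac6 shares its stretch with the strongly raised H2bc4, H2bc14 and H3c4 passed the shared fit, and H4c4 had the widest gap between the lines among H4 genes. Capitals mark matches to the letters of the TATA box (TATAAA), the CCAAT box (CCAAT), the octamer bound by Oct factors (ATTTGCAT) and the H1 box (AAACACA). Matches count on either strand and at any distance from the start, so a match need not be a working element. In H3c4, those to TATAAA start at -168, -161 and, on the opposite strand, -32. The stretches lie at chr13:23622559-23622808 (minus strand, H1f4), chr13:23683960-23684209 (minus, H2ac6), chr13:21721794-21722043 (plus, H2bc14), chr13:23575513-23575762 (plus, H3c4) and chr13:23581318-23581567 (plus, H4c4).
H1f4: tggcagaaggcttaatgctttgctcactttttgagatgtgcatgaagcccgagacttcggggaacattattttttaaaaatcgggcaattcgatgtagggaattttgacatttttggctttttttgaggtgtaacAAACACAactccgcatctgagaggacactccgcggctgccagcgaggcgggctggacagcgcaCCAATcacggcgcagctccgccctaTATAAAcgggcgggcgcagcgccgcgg
H2ac6: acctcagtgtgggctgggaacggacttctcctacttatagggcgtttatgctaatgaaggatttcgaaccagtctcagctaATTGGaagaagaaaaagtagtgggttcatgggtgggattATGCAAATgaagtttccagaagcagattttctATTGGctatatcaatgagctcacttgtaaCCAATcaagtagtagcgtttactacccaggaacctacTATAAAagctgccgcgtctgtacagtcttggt
H2bc14: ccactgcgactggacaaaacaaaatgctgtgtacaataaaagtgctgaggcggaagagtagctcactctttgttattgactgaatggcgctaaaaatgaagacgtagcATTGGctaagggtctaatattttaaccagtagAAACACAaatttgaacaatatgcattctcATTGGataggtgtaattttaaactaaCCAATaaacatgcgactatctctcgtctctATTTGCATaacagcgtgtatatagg
H3c4: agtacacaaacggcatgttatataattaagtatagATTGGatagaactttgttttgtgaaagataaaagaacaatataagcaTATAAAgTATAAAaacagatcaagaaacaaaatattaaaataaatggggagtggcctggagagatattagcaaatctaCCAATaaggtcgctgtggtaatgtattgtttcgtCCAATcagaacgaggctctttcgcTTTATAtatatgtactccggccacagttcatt
H4c4: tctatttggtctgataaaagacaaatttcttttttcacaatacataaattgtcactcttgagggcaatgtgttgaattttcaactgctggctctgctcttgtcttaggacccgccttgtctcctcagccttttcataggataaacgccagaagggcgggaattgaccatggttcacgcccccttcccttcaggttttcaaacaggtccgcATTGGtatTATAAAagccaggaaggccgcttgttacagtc

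RefSeq's table held a window of 300 bases around the start, 250 before and 50 after, for 44 of the 50 members. The CCAAT box was in all 14 H2A windows, all 8 H2B windows and all 6 H3 windows, but in 2 of 7 H4 windows, against 37.4% of the 32851 windows of all genes. The octamer was in 6 of 14 H2A and 5 of 8 H2B windows and in 0 of the 9 H1, 6 H3 and 7 H4 windows, with 1.74% over all genes. The H1 box was in 5 of 9 H1, 2 of 14 H2A and 2 of 8 H2B windows and in 0 of the H3 and H4 windows (7.18% over all genes). TATAAA, on either strand and anywhere in the window, was in 25 of the 44 windows (13.6% over all genes) and in 2 of 6 H3 windows. Most windows of the class thus lack the CCAAT box of H4c4, the H1 box of H2bc14 and the TATAAA of H3c4. These motifs do not overlap in the shown stretches. The half-site AGGTCA repeated in one orientation with 5 bases between, a form of the element bound by RA receptors, was in 0 of the 44 windows and in 3 of all windows, which says only that these letters are not in this stretch.

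In V6.5 cells histone ratios lay well to the positive side. The median log2 ratio of the 50 members was 0.50, with a range from -0.50 to 1.53, beside a median of -0.02 over all genes. Of the members, 45 were above 0 (46.6% of all genes were), 19 were at least 1.5-fold higher (6.69%) and 8 were at least 2-fold higher (2.52%). None of the members was 1.5-fold lower, where the share of all genes was 5.36%, and so none was 2-fold lower (1.59%). The 8 members past 2-fold were H3c15, H1f4, H2bc4, H1f10, H2ac11, H2ac18, H2ac4 and H2ac20.

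In the knockout the same genes lay closer to 0. Their median was 0.12, with a range from -0.49 to 1.28, beside -0.02 over all genes. Here 30 members were above 0 (46.5% of all genes were), 8 were at least 1.5-fold higher (7.28%) and 2 were at least 2-fold higher (2.92%), H3c15 and H2bc4. None was 1.5-fold lower (5.06%) or 2-fold lower (1.65%). The count past 2-fold on this array is near its background share.

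**Figure D1:**
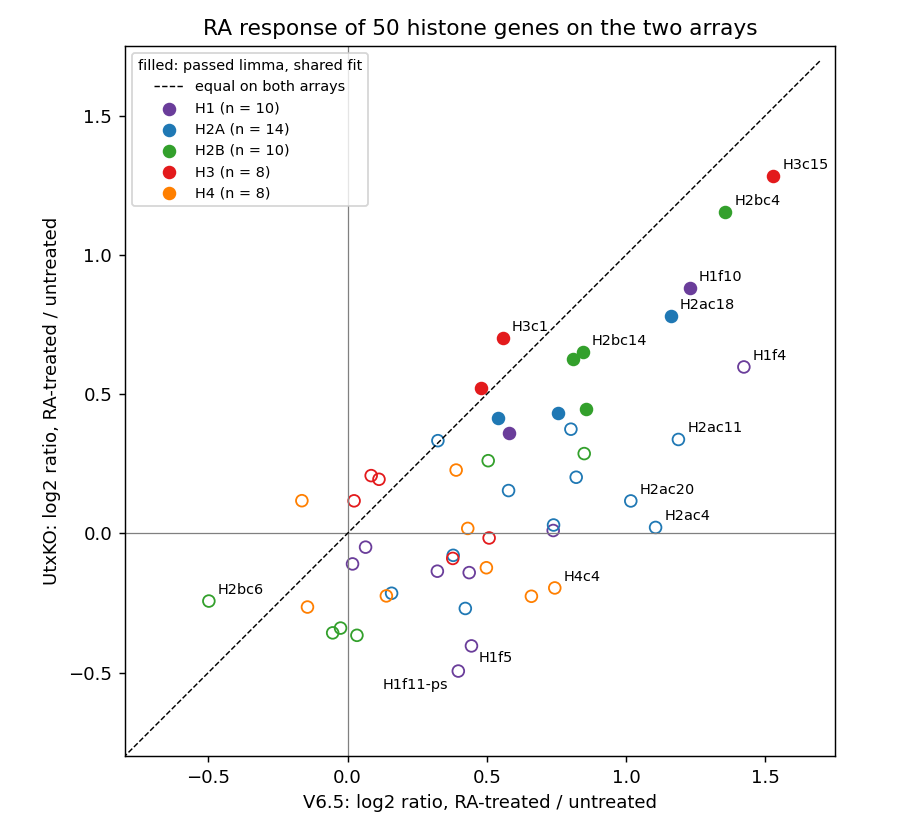
Each point is 1 of the 50 histone genes, with its log2 ratio in V6.5 on the horizontal axis and in UtxKO on the vertical axis, coloured by class and filled where the shared fit passed. Of the points, 42 lie below the dashed line of equal ratios, and H3c15 and H2bc4 stand at the top right.

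The shared fit asks which members moved the same way on both arrays. It is limma's test of the mean of the V6.5 and the knockout ratio against 0, adjusted over all 22485 genes, and takes the lines as 2 samples of 1 response. Of the 50 members, 12 rose (8.93% of all genes did) and 0 fell (7.93% did) at an adjusted p under 0.05. At an unadjusted p under 0.05 in limma, 21 were higher and 1, H2bc6, was lower, and with robust eBayes the counts were the same. The share of all genes at this unadjusted bound is not given, so unadjusted counts here and below have no background beside them. By class, 2 of 10 H1 genes, 3 of 14 H2A, 4 of 10 H2B, 3 of 8 H3 and 0 of 8 H4 rose. Any difference between the lines enters the residual of this fit, so these counts also depend on how alike the lines were. Against a bound of 1.5-fold (limma's treat), H3c15 alone passed. Values after ± below are limma's moderated SEs over n = 2 arrays, and replicate cultures may spread more. A p that misses the threshold does not show that a gene did not change.

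The linker histones were positive in all 10 cases in V6.5 and in 4 of 10 in UtxKO, with class medians of 0.44 and -0.08. H1f10, a replacement linker histone made outside S phase, read 1.23 in V6.5 and 0.88 in UtxKO. It rose by 1.05 ± 0.11 (limma, adjusted p of 0.0170, n = 2). H1f1, a somatic S-phase form, had 0.58 and 0.36 and rose by 0.47 ± 0.09 (adjusted p of 0.0447). H1f4, the somatic form whose promoter is shown above, had 1.42 and 0.60, which is 2.68-fold in V6.5 and 1.51-fold in UtxKO. Its limma p missed the threshold (adjusted p of 0.0547) and passed after centring on the array median or after quantile normalization.

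Among the other somatic linker histones, H1f2 had 0.74 in V6.5 and 0.01 in UtxKO, and H1f5 had 0.45 and -0.40. H1f3 stayed near 0 on both arrays, with 0.06 and -0.05. Among the germline forms, the testis gene H1f6 had 0.44 and -0.14, the testis gene H1f7 0.02 and -0.11, and the oocyte gene H1f8 0.32 and -0.14. The pseudogene H1f11-ps had 2 features that read alike, 0.37 and 0.43 in V6.5 and -0.51 and -0.48 in UtxKO. None of these 7 passed limma, and H1f0 and H1f9 are not among the named features and were not analysed here.

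H2A genes had the highest class median in V6.5, 0.75, and all 14 were positive there, from 0.16 to 1.19. In the knockout the median was 0.18, and 11 of 14 were positive. H2ac18 had 1.16 in V6.5 and 0.78 in UtxKO and rose by 0.97 ± 0.12 (limma, adjusted p of 0.0210, n = 2). H2ac12, with 0.76 and 0.43, and H2ac10, with 0.54 and 0.41, rose as well (adjusted p of 0.0407 and 0.0339). H2ac18 belongs to the Hist2 cluster and the other pair to Hist1.

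H2ac11 had 1.19 in V6.5 and 0.34 in UtxKO, H2ac4 had 1.11 and 0.02, and H2ac20 had 1.02 and 0.12. These 3 were past 2-fold in V6.5 and under 1.5-fold in UtxKO, and limma did not call them (adjusted p of 0.0994, 0.250 and 0.188). H2ac22 had 0.82 and 0.20. H2ac1, the testis form, had 0.80 and 0.37, with an adjusted p of 0.0560 in limma that passed after centring on the array median or quantile normalization. At the low end of the class were H2ac6 (0.42 and -0.27), H2ac19 (0.38 and -0.08) and H2ac21 (0.16 and -0.21). H2ac8 had nearly equal ratios, 0.32 and 0.33, and passed only after centring on the array median. The features of H2ac15 disagreed in size, with 1.11 and 0.37 in V6.5 and 0.18 and -0.12 in UtxKO.

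H2B genes split into a raised and a flat or lower set. H2bc4 had 1.36 in V6.5 and 1.15 in UtxKO, 2.56-fold and 2.22-fold, and rose by 1.25 ± 0.09 (limma, adjusted p of 0.0105, n = 2). H2bc14 had 0.85 and 0.65 and the testis form H2bc1 had 0.81 and 0.63, and both rose, by 0.75 ± 0.09 and 0.72 ± 0.09. H2bc8, with 0.86 and 0.45, also rose (limma, adjusted p of 0.0443). H2bc18 had 0.85 and 0.29 and H2bc23 0.51 and 0.26, without passing.

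The other 4 H2B genes were near or below 0 in both lines. H2bc21 had 0.03 in V6.5 and -0.37 in UtxKO, H2bc22 -0.03 and -0.34, and H2bc3 -0.05 and -0.36. H2bc6 was the lowest member in V6.5, with -0.50, and had -0.24 in UtxKO. Class medians were 0.66 and 0.27. RefSeq lists 5 H2B genes with a span above 1000 bases, far longer than a single short exon: H2bc4 (8282 bases), H2bc6 (37455), H2bc21 (2667), H2bc22 (14079) and H2bc23 (3788). These 5 hold both the highest and the lowest H2B ratio, so a long span did not go with 1 direction.

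H3 genes were led by H3c15 of the Hist2 cluster, the highest member on either array. It had 1.53 in V6.5 and 1.28 in UtxKO, 2.88-fold and 2.43-fold, and rose by 1.41 ± 0.10 (limma, adjusted p of 0.0102, n = 2). H3c1 had 0.56 and 0.70 and rose by 0.63 ± 0.08, and H3c4, whose promoter is shown above, had 0.48 and 0.52 and rose by 0.50 ± 0.07. The neighbour of H3c15 in name and cluster, H3c14, had 0.51 and -0.02. H3c7 had 0.38 and -0.09, and H3c3 (0.11 and 0.19), H3c8 (0.08 and 0.21) and H3c11 (0.02 and 0.12) were low and alike on both arrays. Class medians were 0.43 in V6.5 and 0.20 in UtxKO.

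H4 genes had opposite signs on the arrays in 5 of 8 cases, H1 genes in 6 of 10. Among these cases, both values exceeded the median SD of 0.14 between features only for H1f5, H1f11-ps, H4c4 and H4c12. Over all genes, 12.2% were positive in V6.5 and negative in UtxKO, and 12.2% were the reverse. The H4 class median was 0.41 in V6.5 and -0.16 in UtxKO, with 6 of 8 positive on the V6.5 array and 3 of 8 on the other. H4c4 had 0.74 and -0.20, H4c12 0.66 and -0.23, and H4c11 0.50 and -0.12. H4c3 had 0.39 and 0.23 (limma, adjusted p of 0.0830), and it alone was higher at an unadjusted p under 0.05. H4c17 (-0.16 and 0.12) and H4c8 (-0.14 and -0.26) were negative in V6.5.

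Of the 5 genes with a pair of features, 3 are H4 genes, and their features did not all read alike. H4c14 had -0.42 and 0.70 in V6.5, which average to 0.14, and -0.31 and -0.14 in UtxKO. H4c9 had 0.11 and 0.76 in V6.5 and 0.05 and -0.02 in UtxKO. H4c12 had 0.81 and 0.51 in V6.5 and -0.26 and -0.19 in UtxKO. The SD between features in V6.5 was 0.79 for H4c14, 0.46 for H4c9, 0.21 for H4c12 and 0.52 for H2ac15, above the median of 0.14, and 0.04 for H1f11-ps. For these 4 genes a gene mean in V6.5 depends on which feature is read.

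**Figure D2:**
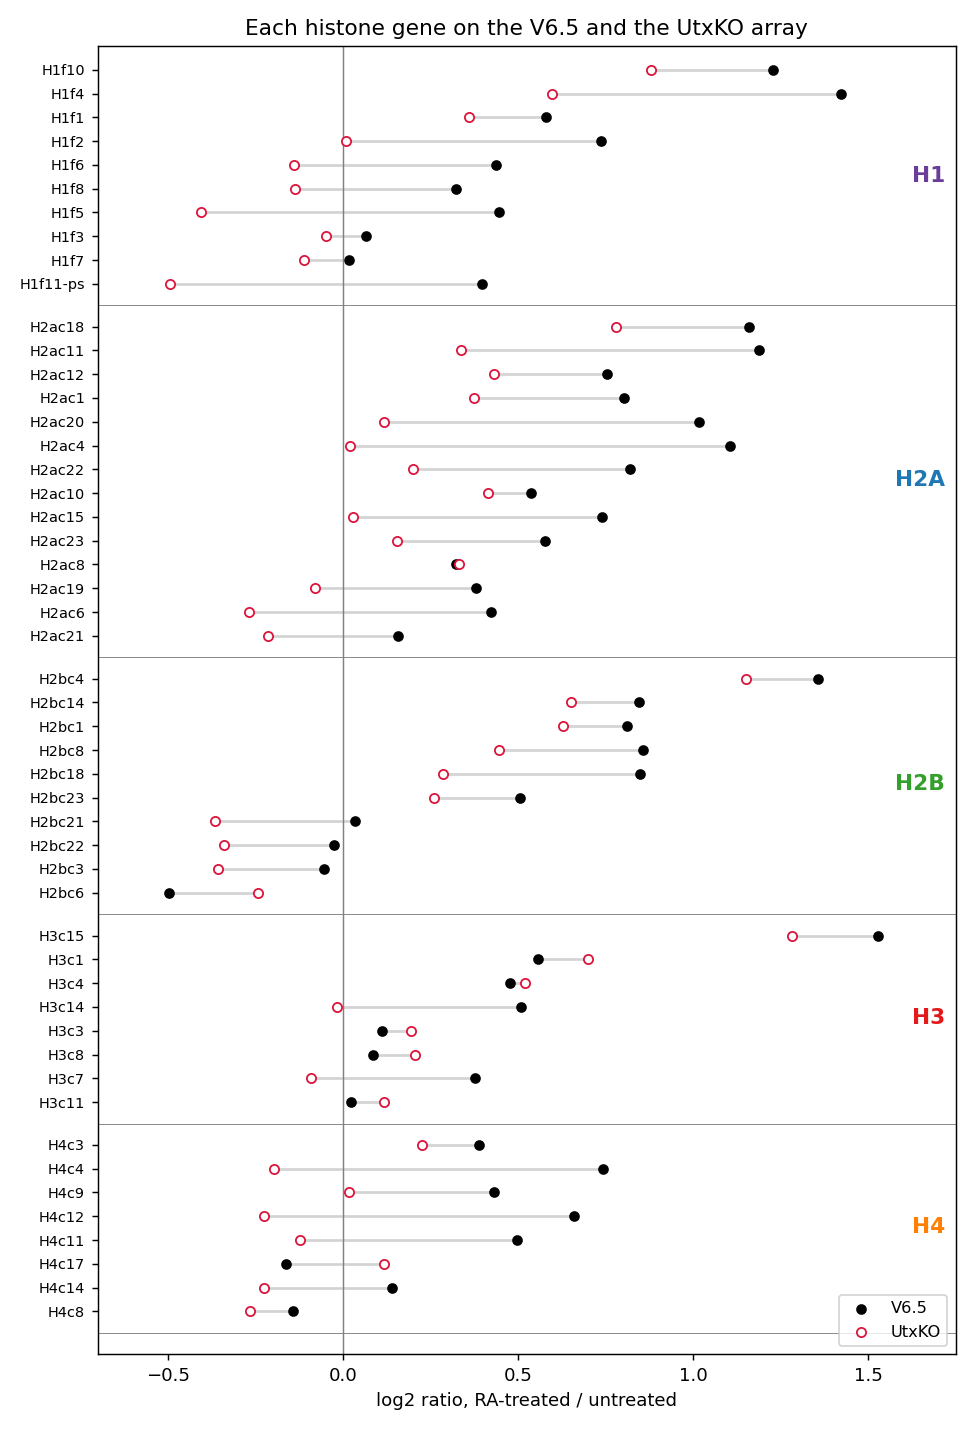
Each line is 1 histone gene, ordered within its class by the mean of its ratios, with a black point for V6.5, an open red point for UtxKO and the log2 ratio on the axis. In H1 every red point lies left of its black point, while in H3 5 of 8 lie right of it.

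The design asks whether the RA response differs without Utx. The knockout ratio was below the V6.5 ratio for 42 of the 50 members (49.3% of all genes), with a median difference of -0.38 beside 0.00 over all genes. The difference was at least 1.5-fold downward for 13 members (1.88% of all genes) and at least 1.5-fold upward for 0 (2.50%). One member, H2ac4, was past 2-fold downward (0.467% of all genes) and 0 were past 2-fold upward (0.583%). With 1 array per line this difference has no test, and a shift of 1 culture or 1 hybridisation cannot be told apart from the genotype. Members were positive in V6.5 and negative in UtxKO in 16 cases (12.2% of all genes), and the opposite held for 1, H4c17 (12.2%).

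The largest downward differences were those of H2ac4 (-1.08), H4c4 (-0.94), H2ac20 (-0.90), H1f11-ps (-0.89) and H4c12 (-0.89). The largest upward ones were those of H4c17 (0.28), H2bc6 (0.25), H3c1 (0.14), H3c8 (0.12) and H3c11 (0.09). By class, the knockout ratio was lower for 10 of 10 H1 genes, 13 of 14 H2A, 9 of 10 H2B, 7 of 8 H4 and 3 of 8 H3. Median differences were -0.52 for H1, -0.44 for H2A, -0.27 for H2B, 0.06 for H3 and -0.39 for H4. The H3 genes with a lower knockout ratio were H3c14, H3c7 and H3c15. The past 1.5-fold differences were 4 in H1, 6 in H2A, 3 in H4 and 0 in H2B and H3. These class contrasts are a description, since features may take signal from several copies of a class and its genes are not replicates.

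**Figure D3:**
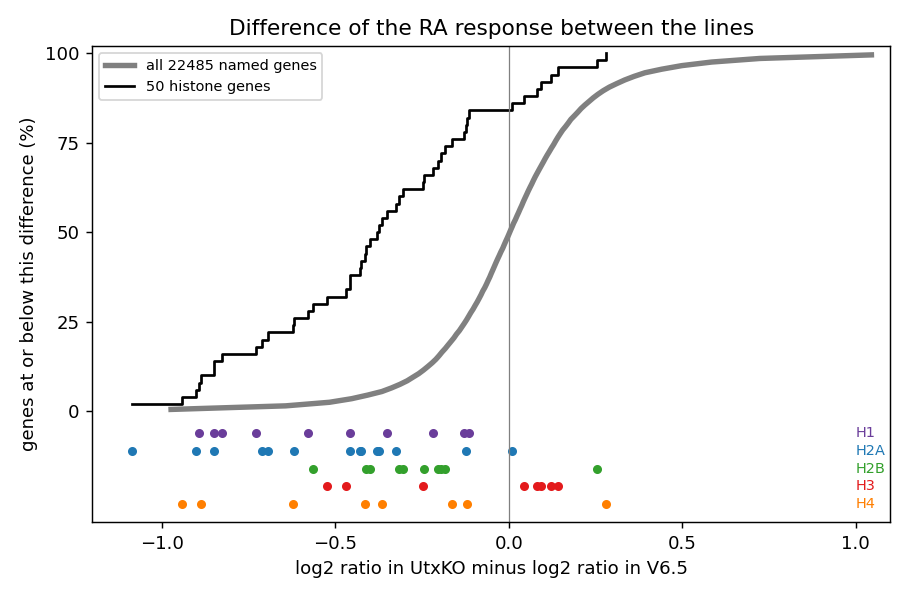
The black line gives the share of the 50 histone genes, and the grey line that of all 22485 named genes, at or below each difference of log2 ratios (UtxKO minus V6.5), with 1 dot per member below, by class. The black line crosses 50% near -0.38 and the grey line near 0.

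Both histone clusters showed the lower knockout ratios. In the 37 Hist1 members the medians were 0.51 in V6.5 and 0.15 in UtxKO, and 29 had the lower ratio in UtxKO. In the 9 Hist2 members they were 0.51 and -0.02, and 9 of 9 had the lower ratio in UtxKO. The 6 H3 genes of Hist1 had a median difference of 0.09, and the H3 genes of Hist2, H3c14 and H3c15, had -0.52 and -0.25.

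Across the 50 members the ratios of the arrays had a Pearson r of 0.69 and a Spearman rho of 0.66, beside 0.84 and 0.73 across all named genes. These are correlations across genes, which are not independent replicates and share sequence and the dye orientation. Members that ranked high in one line thus tended to rank high in the other, while 42 of the 50 had the lower ratio in UtxKO.

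Many H2A and H2B genes lie head to head and share the stretch between their starts, so ratios of neighbours were set side by side. H2ac6 and H2bc4 are 239 bases apart in the RefSeq table, and the printed H2ac6 sequence spans that stretch. Its ratios were 0.42 and -0.27 against 1.36 and 1.15 for H2bc4, so these neighbours differed by more on both arrays than the median SD between features. H2ac22 and H2bc22, 234 bases apart on opposite strands, had 0.82 and 0.20 against -0.03 and -0.34. H2ac20 had 1.02 and 0.12 against 0.03 and -0.37 for H2bc21 at 191 bases, while H2ac21, 717 bases from H2bc21, had 0.16 and -0.21. The strands of H2bc4 and H2bc21 were not listed. The testis pair H2ac1 and H2bc1, 280 bases apart, was closer, with 0.80 and 0.37 against 0.81 and 0.63, as were H2ac23 and H2bc23, with 0.58 and 0.15 against 0.51 and 0.26. In H2ac8 and H2bc8, the H2B gene was higher, with 0.86 and 0.45 against 0.32 and 0.33.

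Motif content was also set beside the ratios, as a description. The 5 H2B genes whose window holds the octamer had medians of 0.85 in V6.5 and 0.45 in UtxKO, and the 3 without it had -0.03 and -0.24. H2bc4, the highest H2B gene (1.36 and 1.15), and H2bc21 (0.03 and -0.37) had no window and are in neither set. Each set had an exception: H2bc3 holds the motif and was low (-0.05 and -0.36), and H2bc23 lacks it and had 0.51 and 0.26. The 3 H2B genes without the octamer (H2bc6, H2bc22 and H2bc23) have spans above 1000 bases, and the 5 with it have shorter ones. Octamer and span can thus not be told apart in H2B. Of the 2 windows of H2bc6, 1 was searched. In H2A the 6 genes with the octamer had 0.78 and 0.22 and the 8 without it 0.66 and 0.18. Of the H1 genes, the 5 with the H1 box (H1f2, H1f3, H1f4, H1f5 and H1f6) had a median difference between the lines of -0.73, and the 4 without it had -0.28. The 4 without it were H1f1, the germline forms H1f7 and H1f8 and the replacement form H1f10. Those with it are somatic except the testis form H1f6, so box and gene type cannot be fully told apart. H1f3 holds the box and had the smallest difference of the class, -0.11. In H2A the order was as in H1, with -0.76 for the 2 genes with the box and -0.44 for the 12 without it. In H2B the order was reversed, with -0.19 for the 2 genes with the box and -0.31 for the 6 without it.

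The machinery around histone genes had medians near or below 0. For the adjusted counts that follow, the shares of all genes were 8.93% higher and 7.93% lower. A list with 1 or 2 lower genes is near that share. No such share is given for the unadjusted counts. In each list, highest and lowest are by the mean of the V6.5 and UtxKO ratios. Of 16 genes of histone pre-mRNA processing, 0 rose and 1 fell in limma (0 higher and 3 lower at an unadjusted p under 0.05), with medians of -0.12 in V6.5 and -0.11 in UtxKO. The one that fell was Upf1 (-0.56 and -0.39), a helicase that acts in histone mRNA decay. Slbp, the stem-loop binding protein, had -0.38 and -0.18. By mean, the highest of this list was Cpsf3, the nuclease that cuts histone pre-mRNA, with 0.07 and 0.10, and Upf1 was the lowest. Of 18 genes of histone transcription and chaperones, 0 passed in limma (0 higher and 3 lower unadjusted). Npat, the activator of the histone clusters, had -0.16 and -0.14, and the range by mean ran from Chaf1b (-0.29 and -0.46), of the assembly factor CAF-1, to Mcm2 (0.12 and 0.14).

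Genes of general polyadenylation and of S phase were also near or below 0. Of 13 polyadenylation genes, 0 rose and 1 fell in limma (0 higher and 4 lower unadjusted), the termination factor Pcf11 (-0.60 and -0.39), which was the lowest by mean, while Clp1 (0.33 and 0.05) was the highest by mean. Of 24 S-phase genes, 0 rose and 2 fell (0 higher and 6 lower unadjusted): Cdk2 (-0.50 and -0.48) and the replication factor Gins2 (-0.47 and -0.59), the lowest by mean. The highest by mean was Cdc45 (0.38 and -0.06), which was below 0 in UtxKO. Medians of the S-phase list were -0.06 and -0.10, and with robust eBayes the counts of all these lists were the same.

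Replacement and testis variants of the histones gave a comparison outside the rule. Many replacement histones, but not all of this list, are made through the cell cycle from polyadenylated mRNA. Of 11 measured, 1 rose and 0 fell in limma (3 higher and 0 lower unadjusted), with medians of 0.17 in V6.5 and -0.03 in UtxKO. H3f3b, a gene of the variant H3.3, rose (0.66 and 0.67, adjusted p of 0.0173), while its sister gene H3f3a had -0.28 and 0.12. H2al1m, a testis variant, was the lowest by mean (-0.31 and -0.14). H2ax and H2az1 had 0.17 and -0.03 and -0.02 and -0.24.

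Markers of fibroblasts, cells used as feeders in other ES cultures, moved with RA on the same arrays: 7 of 12 fell and 0 rose in limma (7 and 0 unadjusted). Their medians were -0.90 for V6.5 and -1.09 for UtxKO, with ranges from -1.95 to 0.28 and from -2.63 to 0.32. By mean, the lowest was S100a4 (-1.95 and -2.63) and the highest Pdgfra (0.05 and 0.32), while the top of the V6.5 range was Fap. Col1a1, Col1a2, Col3a1, Thy1, Postn and Vim fell too. Pdgfrb (0.015 and 0.11), Dcn (-0.38 and -0.05) and Lum (-0.19 and -0.08), like Pdgfra and Fap, did not pass. The part of such cells in the histone ratios was not tested.

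**Figure D4:**
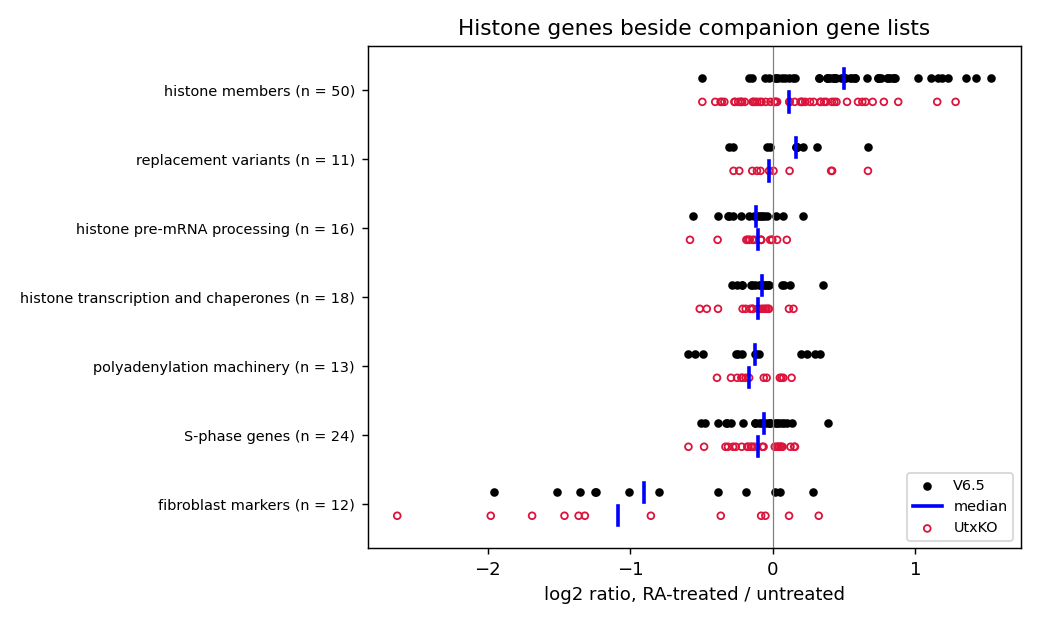
Points are single genes on the V6.5 array (black) and the UtxKO array (open red) for the histone members and the 6 companion lists, with a blue bar at each median and the log2 ratio on the axis. The histone members have the highest V6.5 median, 0.50, and the 24 S-phase genes sit around 0, with medians of -0.06 and -0.10.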

How the data were processed

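Log2 ratios of RA-treated over untreated RNA, as deposited by the authors, were used for V6.5 and UtxKO. The log base is inferred from their range, and the authors' values average 0 on each array. Per the submitters' processing notes, limma was used, without version or role. The sources used here do not give the background correction, the within-array normalization or the genome build.

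Of 44397 features, 33026 had 1 gene symbol, 0 several and 11371 none. Features of a gene were averaged. All 50 members were found in RefSeq's table (GRCm38.p6) by Entrez number. That table gave older symbols, spans and neighbours, and RefSeq's promoter table gave sequences. The shared response was fitted with limma 3.58.1 in R 4.3.3 (lmFit with an intercept, eBayes, two-sided, Benjamini-Hochberg over all genes, threshold 0.05), with 1 residual and 2.98 prior degrees of freedom. It was tested on simulated data. Python 3.11.15, numpy 2.4.6, pandas 2.3.3 and matplotlib 3.10.9 did the rest. Alternatives varied centring, scaling, averaging of features, the fold, the fit and the list.

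Members and lists were chosen with earlier results of these data known. Genes were named where they passed limma or 2-fold, as the 3 highest and lowest of a class by mean, as the 5 largest differences each way, or as germline or replacement forms. From a companion list, those that passed and the highest and lowest were named. Others were added after their values were seen.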

Additional observations from a re-analysis of the deposited data

Results flagged for a closer look

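Results are listed here where the array of one line pointed up and that of the other down. For genes, both values also had to exceed the median SD of 0.14 between features. Members with a pair of features often spread more in V6.5, with an SD of 0.79 for H4c14, 0.52 for H2ac15, 0.46 for H4c9 and 0.21 for H4c12. It was 0.04 for H1f11-ps, and in UtxKO the SDs of these genes ran from 0.02 to 0.22. A gene on 1 feature may thus be listed within such a spread. The difference was not tested, since each line has 1 array. The class median of H1 was 0.44 in V6.5 and -0.08 in UtxKO, a gap of -0.52. That of H4 was 0.41 and -0.16, a gap of -0.57. Among genes, the knockout ratio lay below the V6.5 ratio by a difference of -0.89 for H1f11-ps, -0.85 for H1f5, -0.37 for H2ac21, -0.69 for H2ac6, -0.89 for H4c12 and -0.94 for H4c4. All 6 were above 0 in V6.5 and below 0 in UtxKO.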

How the results depend on the processing

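Centring on the array median, quantile normalization between the arrays and the median of features left every count within 1.5 times and every class median within 0.14 of its value. With 1.5-fold in place of 2-fold, 19 members were higher in V6.5, 8 were higher in UtxKO and 13 had a lower knockout ratio. With treat against 1.5-fold, 1 of the 12 calls remained. Over genes with a pair of features, the knockout median was -0.49 for H1 and 0.030 for H2A, each resting on 1 gene. Without the germline and replication-independent members the H2B median in V6.5 was 0.51. An alternative added after seeing the data took in 4 genes with older Hist symbols, and 4 genes were then past 2-fold in UtxKO. These alternatives change the bound or the genes counted. Of the genes taken in, H2aw (1.31) and H2bu2 (1.14) were past 2-fold in UtxKO. Leaving out an array leaves the shared fit no residual degrees of freedom and was not run. No paired analysis was possible because each line has 1 array. Spot intensities were not used here, so signal over background is unknown.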

Other observations

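The annotation names 4 further genes whose older RefSeq symbol starts with Hist3 or Hist4, but whose current symbol the rule does not take. H2aw, an H2A gene once called Hist3h2a, had log2 ratios of 1.21 in V6.5 and 1.31 in UtxKO and rose by 1.26 ± 0.08 (limma, adjusted p of 0.00915, n = 2 arrays). H2bu2, an H2B gene once called Hist3h2ba, had 1.53 and 1.14 and rose by 1.34 ± 0.12 (limma, adjusted p of 0.0141). Both were past 2-fold on either array, as H3c15 and H2bc4 were among the members. H4f16, once Hist4h4, had 0.80 and -0.08, a pattern like that of H4c4 (0.74 and -0.20) and H4c11 (0.50 and -0.12). The pseudogene H2bu1-ps had -0.03 and -0.11.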
